A study of Mus musculus with 10 samples.

Results

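The clustered histone genes of the mouse encode the histones that package DNA newly made in S phase. All rows of the expression table whose symbol starts with Hist1h, Hist2h, Hist3h or Hist4h were taken, which gave 66 genes of 17457 rows. The 66 genes comprised 6 genes of the linker histone H1 and, for the core histones, 17 of H2A, 18 of H2B, 12 of H3 and 13 of H4. The Hist1 cluster on chromosome 13 held 52 of them, the Hist2 cluster on chromosome 3 held 10, the Hist3 cluster on chromosome 11 held 3, and Hist4h4 on chromosome 6 was alone (RefSeq annotation of GRCm38.p6, on which all 66 were found). That annotation lists Hist3h2bb-ps, counted here under H2B and Hist3, as a transcribed pseudogene.

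Expression was measured by RNA sequencing of CD4+ T cells in 10 libraries, 6 labelled TEST and 4 labelled CONTROL, and numbers given to the libraries of a group follow their order of deposit. Per the labels all cells had been kept for 5 h with anti-CD3, anti-CD28, IL-2 and TSLP, an epithelial cytokine that T cells sense through TSLPR. The study's Results call these cells freshly sorted, which differs from the culture in the labels, and the labels were followed here. TEST 1 and TEST 2 were the draining and non-draining lymph nodes of the same pool of 4 mice, C57BL/6 TSLPR -/- hosts with the K14-TSLP +/tg transgene that had been given Ly5.1 CD4+ T cells, and TEST 3 was non-draining node from a pool of 2 such hosts. TEST 4 came from nodes of a C57BL/6 mouse with K14-TSLP +/tg, MMTV-PyMT +/tg and TSLPR +/-. TEST 5 was a Balb/c host with K14-TSLP +/tg, MMTV-PyMT +/tg and Rag1 -/- that had been given CD4+ T cells, and TEST 6 a Balb/c mouse with K14-TSLP +/tg, MMTV-PyMT +/tg and Rag1 +/-. CONTROL 1, from draining nodes of a pool of 4, and CONTROL 2, from nodes of a single mouse, were C57BL/6 TSLPR -/- hosts given TSLPRKO CD4+ T cells. CONTROL 3 was the spleen of a C57BL/6 mouse with K14-TSLP +/tg, MMTV-PyMT +/tg and TSLPR -/-, and CONTROL 4 was lymph node of a Balb/c Rag1 +/- mouse. The K14 promoter drives TSLP in the skin and MMTV-PyMT gives mammary tumours. The hosts of TEST 1, TEST 2, TEST 3, CONTROL 1 and CONTROL 2 carried injected PyMT tumours and had been irradiated below the lethal dose. Genotype, strain, tissue, transfer and pooling therefore varied within both groups and cannot be told apart from each other library by library.

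Histone proteins are needed in bulk only while DNA is copied, and the clustered genes are switched on together at the start of S phase by NPAT, the activator that marks the histone locus body. Their messenger RNAs are unlike nearly all others in that they end in a short stem-loop and not in a poly(A) tail. The stem-loop binding protein SLBP holds this structure through processing and translation, and the RNA is destroyed when replication stops. Library methods that capture poly(A) tails recover such RNAs poorly, although some clustered genes also make polyadenylated transcripts, particularly in cells that have left the cycle.

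The 3′ stem-loop was looked for in the coding transcripts of GENCODE vM21 on GRCm38, within 300 bases after the stop codon. The search asked for a 6-base stem, a 4-base loop and the facing 6-base stem. The stem had to read GG, pyrimidines and T, and the facing stem A, purines and CC, with paired bases (G-T allowed). These set bases limit how many different stem-loops could be found and how many other genes could match. The stem-loop was found in 46 of the 65 members with a coding transcript there, against 0.337% of 22527 coding genes. Of the 19 members without a match, 14 had under 40 bases annotated after the stop codon. The sites below are shown because the RNA end they form sets these transcripts apart from polyadenylated ones. Capitals mark the 16 bases of stem, loop and stem, and each site lies 5′ to 3′ on the gene's strand at chr13:23581945-23581970 (+), chr13:22036295-22036320 (+), chr3:96246027-96246052 (+), chr13:23739507-23739532 (+) and chr13:23760795-23760820 (-) in that order.
Hist1h4d: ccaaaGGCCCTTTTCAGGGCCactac
Hist1h2bk: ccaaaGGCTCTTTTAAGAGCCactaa
Hist2h2aa1: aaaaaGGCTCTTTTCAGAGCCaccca
Hist1h1c: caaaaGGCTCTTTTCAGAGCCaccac
Hist1h4a: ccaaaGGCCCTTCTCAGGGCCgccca
Within the searched pattern 8 different 16-base stem-loops were present among the 46 members, and 26 members shared that of Hist2h2aa1 and Hist1h1c. The stem-loop began 21 to 58 bases after the stop codon, with a median of 31 bases. For 12 members, Hist1h1c and Hist1h4a among them, GENCODE also listed a transcript that ran over 100 bases past the stem-loop and had AATAAA or ATTAAA, the signal for poly(A) addition, in its last 50 bases.

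The promoters were more varied. RefSeq windows of 300 bases around the start were matched for 60 members and searched on both strands for ATTTGCAT, the octamer described in H2B promoters, for CCAAT and for TATAAA. ATTTGCAT was present in 5 of 15 H2B and 6 of 17 H2A windows and in none of the H1, H3 and H4 windows, against 1.74% of all 32851 windows. Genes of H2A and H2B often lie head to head, so their windows can overlap. CCAAT was present in 51 of the 60 windows and in 37.4% of all windows, and TATAAA in 33 of the 60 and in 13.6% of all windows. The windows of Hist1h2bm (chr13:21721794-21722093, + strand) and Hist1h4d (chr13:23581318-23581617, + strand) are shown as examples of an H2B promoter with the octamer and of the H4 promoter whose gene had the highest level, with matches on either strand in capitals.
Hist1h2bm: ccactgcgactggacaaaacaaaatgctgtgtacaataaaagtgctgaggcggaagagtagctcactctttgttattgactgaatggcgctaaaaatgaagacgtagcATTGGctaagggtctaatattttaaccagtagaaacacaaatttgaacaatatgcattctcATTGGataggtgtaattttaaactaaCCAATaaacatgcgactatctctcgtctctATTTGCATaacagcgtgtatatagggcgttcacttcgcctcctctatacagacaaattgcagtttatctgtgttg
Hist1h4d: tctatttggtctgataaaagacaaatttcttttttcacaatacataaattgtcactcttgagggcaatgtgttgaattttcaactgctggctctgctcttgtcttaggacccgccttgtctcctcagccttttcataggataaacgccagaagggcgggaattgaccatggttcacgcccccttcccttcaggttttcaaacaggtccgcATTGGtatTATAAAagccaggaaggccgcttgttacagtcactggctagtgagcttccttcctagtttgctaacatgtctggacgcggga
The Hist1h2bm window held the octamer and 3 matches to CCAAT, and the Hist1h4d window held CCAAT and TATAAA but no octamer.

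The members encode few distinct proteins. In the GENCODE coding sequences 44 of the 65 shared their predicted protein with at least 1 other member, and only 28 distinct proteins were found. All 13 H4 genes predicted the same protein of 103 residues, 9 H2A genes shared a protein of 130 residues and 8 H3 genes shared a protein of 136 residues. Hist1h2bq and Hist1h2br had identical values in every library. A coding sequence was shared with another member by only 8 members, so genes with the same protein mostly differ in their bases. Reads from near-identical genes can be divided between them in different ways, which makes the values of such single members less certain.

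Values were deposited in FPKM, a fragment count scaled to the transcript length and to the library total. Read counts are not part of the table, and the precision of a low value is not known. The summed FPKM of the 66 members was 2976 in TEST 1, 3598 in TEST 2, 1262 in TEST 3, 109.5 in TEST 4, 892 in TEST 5 and 1963 in TEST 6. In the controls the sum was 1668 in CONTROL 1, 229.6 in CONTROL 2, 788 in CONTROL 3 and 837 in CONTROL 4. The sum thus differed 32.9-fold between the highest and the lowest library. TEST 1 and TEST 2 were the highest, TEST 4 and CONTROL 2 were far below the rest, and the groups overlapped (TEST 1800 ± 1313, SD, n = 6; CONTROL 881 ± 593, SD, n = 4). TEST 1 and TEST 2 came from the same mice, so the 6 TEST libraries hold 5 separate mouse samples. As a share of all FPKM the members made up 0.805% in TEST 2 and 0.0204% in TEST 4.

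Proliferation genes followed a partly different order. Mki67, which encodes the proliferation antigen Ki-67, was at 64.1 FPKM in TEST 1, 57.4 in TEST 2, 19.6 in TEST 3, 9.28 in TEST 4, 17.6 in TEST 5 and 19.9 in TEST 6, and at 50.3, 7.93, 5.76 and 7.50 in CONTROL 1 to CONTROL 4. Rrm2, the S-phase subunit of ribonucleotide reductase, was at 22.9, 15.9, 8.83, 11.7, 6.46 and 6.21 FPKM in TEST 1 to TEST 6 and at 17.0, 3.02, 2.62 and 2.83 in CONTROL 1 to CONTROL 4. The 3 libraries from pools of 4 mice, TEST 1, TEST 2 and CONTROL 1, were highest for both genes. TEST 4 held more Rrm2 but less Mki67 than TEST 5 and TEST 6, and far less histone RNA. CONTROL 2 had levels of both genes near those of CONTROL 3 and CONTROL 4, and its histone sum was below theirs.

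**Figure D1:**
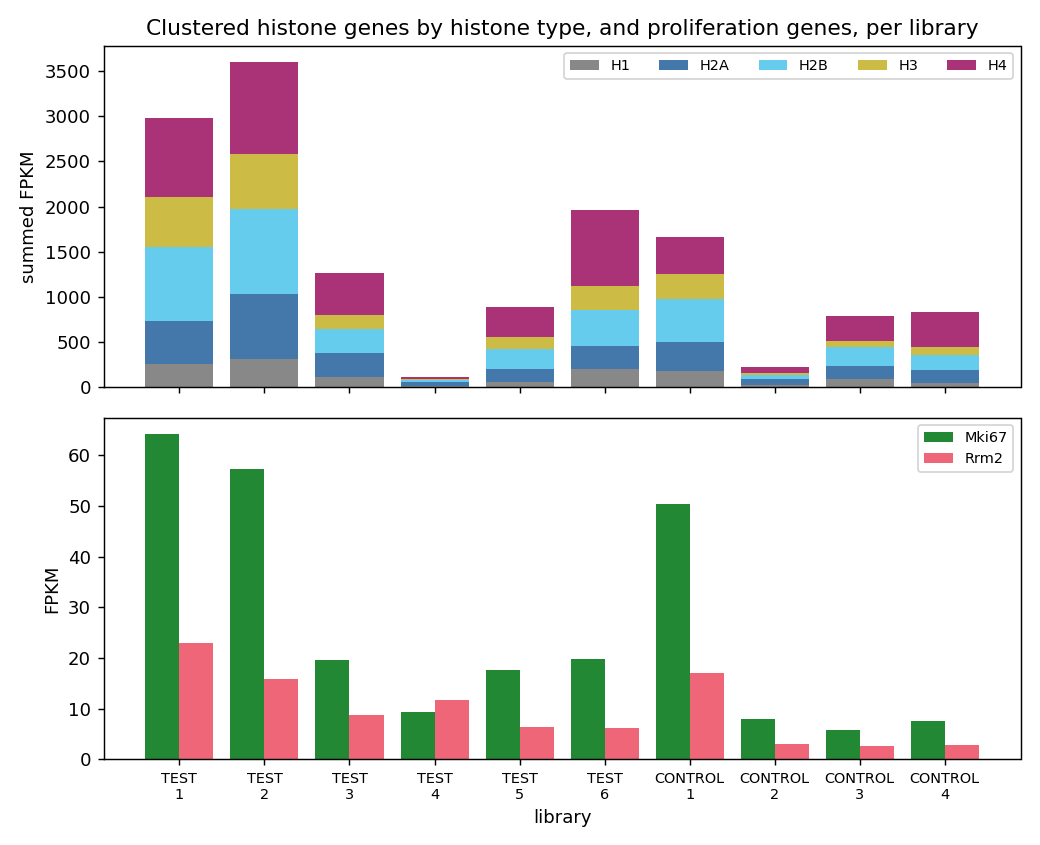
Summed FPKM of the 66 clustered histone genes stacked by histone type (upper panel) and FPKM of Mki67 and Rrm2 (lower panel) in each of the 10 libraries. The histone bar reached 3598 in TEST 2 and 109.5 in TEST 4, while in TEST 4 Mki67 was at 9.28 and Rrm2 at 11.7.

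A few genes carried most of the signal. The 3 highest members made up 41.9% of the members' FPKM and the 10 highest 71.1%, and 27 of the 66 had a mean of 10 FPKM or more. Hist1h4d, an H4 gene, alone contributed 27.0%, and the H4 genes together 32.7%, ahead of H2B with 24.9%, H2A with 17.8%, H3 with 15.3% and H1 with 9.27%. By cluster, Hist1 contributed 79.2% and Hist2 20.2%, whereas Hist3 and Hist4 contributed 0.48% and 0.21%.

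Hist1h4d ranged from 2.33 to 833.7 FPKM over the TEST libraries, with a median of 550.8, and was at 350.2, 46.2, 223.3 and 269.0 FPKM in CONTROL 1 to CONTROL 4. Hist2h3b, an H3 gene of the Hist2 cluster, ranged from 0 to 356.8 FPKM over the TEST libraries, with a median of 108.2, and was at 169.1, 11.1, 22.4 and 65.5 FPKM in the controls. In both genes the lowest library was TEST 4, followed by CONTROL 2. The most abundant H2B gene, Hist1h2bk, ranged from 2.50 to 243.0 FPKM with a median of 87.4 in TEST, and the controls were at 147.1, 8.56, 58.3 and 26.9 FPKM. Hist1h2bl, another H2B gene, ranged from 0 to 235.7 FPKM with a median of 66.2 in TEST, and the controls were at 112.0, 10.4, 37.7 and 44.1 FPKM. Again TEST 4 and CONTROL 2 held the lowest values. The linker histone gene Hist1h1e ranged from 2.16 to 133.7 FPKM with a median of 63.5 in TEST, and the controls were at 82.8, 16.5, 41.5 and 22.2 FPKM.

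At the other end, Hist1h1t, which encodes the H1 variant of the testis, was at 0.20 FPKM in TEST 3 and listed at 0 in the other libraries. It was the only member under 1 FPKM in every library. Values above 0 in all 10 libraries were found for 29 members, and 10 members were at 0 in 5 or more libraries. The 5 genes whose human counterparts also give polyadenylated transcripts varied widely, since Hist1h2bk reached 243.0 FPKM, Hist1h1c 69.3 FPKM and Hist1h2bc 38.4 FPKM, whereas Hist2h2be stayed between 0.71 and 4.32 FPKM and Hist1h2ac, an H2A gene, reached at most 1.26 FPKM.

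**Figure D2:**
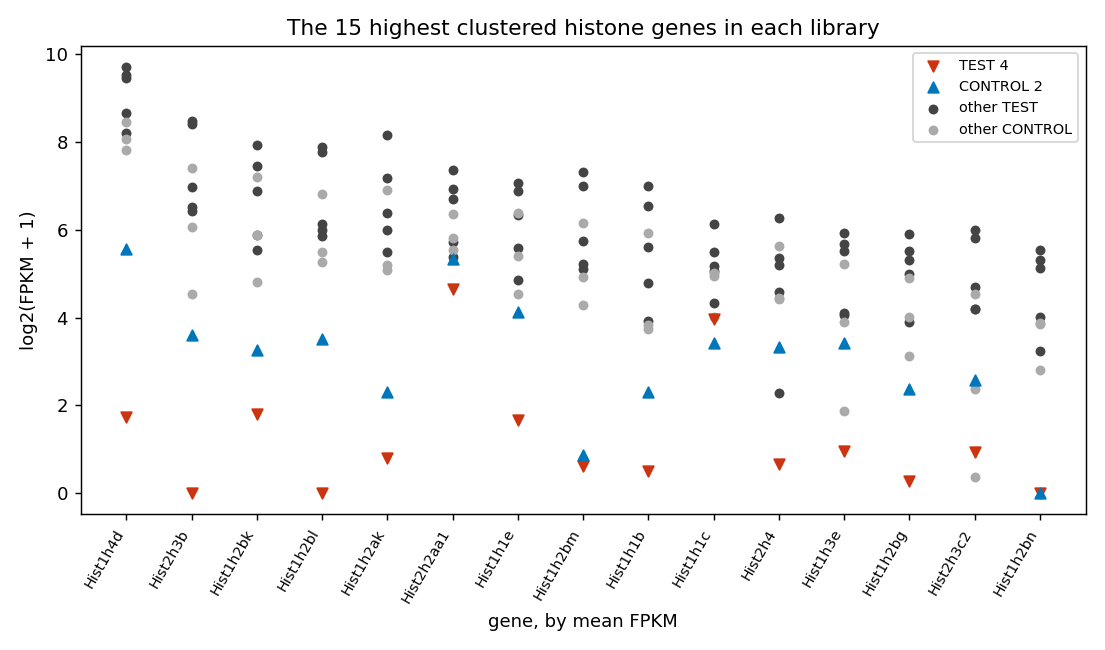
log2(FPKM + 1) of the 15 members with the highest mean, 1 point for each library, with TEST 4 and CONTROL 2 as triangles. In 12 of the 15 genes both triangles lie below all other points, the exceptions being Hist2h4, Hist1h3e and Hist2h3c2.

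TEST 4 and CONTROL 2 stood apart for these genes. Because the pair was singled out by low histone values, what follows describes it and carries no test. In 27 of the 66 members both libraries lay below each of the other 8, and among the 10743 genes that reached 1 FPKM in no fewer than 4 libraries this was so for 94, or 0.875%. Of the 20 genes with the widest gap between the pair and the others on the log2(FPKM + 1) scale, 15 were members, and the remaining 5 were Terc, Rn7s1, Rn7s2, Rnu1a1 and Rnasek. The first 4 of these give noncoding RNAs without a poly(A) tail. The pattern held in 13 of 18 H2B and 4 of 6 H1 genes and in 4 of 17 H2A, 3 of 12 H3 and 3 of 13 H4 genes. A member with no FPKM in some other library could not show it. The order differed by summed FPKM, taken as a ratio to the median of the other 8 libraries. In TEST 4 this ratio was 0.0472 for H3 and for H4, 0.0589 for H2B, 0.127 for H1 and 0.158 for H2A. In CONTROL 2 it was 0.123 for H2B, 0.15 for H3, 0.151 for H4, 0.21 for H1 and 0.235 for H2A.

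The depth of the gap varied between members. Relative to the median of the other 8 libraries, TEST 4 had 0.0062 times the Hist1h4d level and 0.0119 times that of Hist1h2bm, an H2B gene, and CONTROL 2 had 0.123 and 0.0185 times. Hist2h2aa1, an H2A gene, was at 23.9 FPKM in TEST 4 and 39.2 FPKM in CONTROL 2, and at 40.3 to 164.8 FPKM in the others. Hist1h1c, a linker histone gene, was at 14.5 FPKM in TEST 4 and 9.74 FPKM in CONTROL 2, and at 15.2 to 69.3 FPKM in the others. These genes were therefore the lowest in the same libraries, but by a smaller factor than Hist1h4d. The Hist3 cluster did not share the pattern, since its sum in TEST 4 was 1.01 times and in CONTROL 2 1.15 times the median of the others, against 0.0588 and 0.121 times for Hist1 and 0.120 and 0.270 times for Hist2. Hist4h4, the only Hist4 member, was at 0.207 and 1.58 times. The Hist3 sum was only 2.94 to 13.87 FPKM over all libraries, so cluster and level cannot be told apart.

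Members with a transcript annotated past the stem-loop to a poly(A) signal had, by the median, less of a gap in TEST 4. This median ratio to the other 8 libraries was 0.428 over 11 members with a value, against 0.0650 over the 49 remaining members, 0.0967 over all 60 and 1.43 over the 10739 genes with such a ratio. Hist1h4i, an H4 gene of this kind, was higher in TEST 4 (3.77 FPKM) than in every other library, where it ranged up to 3.40 FPKM. The range of both kinds was wide, from 0.0197 to 3.64 times with the extended transcript and from 0 to 1.71 times without it. In CONTROL 2 the medians were 0.306 and 0.105, beside 1.21 over all genes. The count of members under a ratio of 0.1 was 3 of 11 with the extended transcript and 28 of 49 without it in TEST 4, and 5 of 11 and 23 of 49 in CONTROL 2. Of all genes 2.33% were under that ratio in TEST 4 and 1.27% in CONTROL 2. Hist1h2bk, polyadenylated in human, was at ratios of 0.0286 and 0.0979 in TEST 4 and CONTROL 2. Members without a matched stem-loop could not be counted as having the extended transcript, so they are among the 49. Of these, Hist2h2be and Hist1h2bc, also polyadenylated in human, were at 0.830 and 0.421 in TEST 4. In CONTROL 2 they were at 1.45 and 0.0546. Members with the extended transcript were mostly of low level, and in the plot of the ratios low members tended to lie higher, so annotation and level cannot be told apart here.

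**Figure D3:**
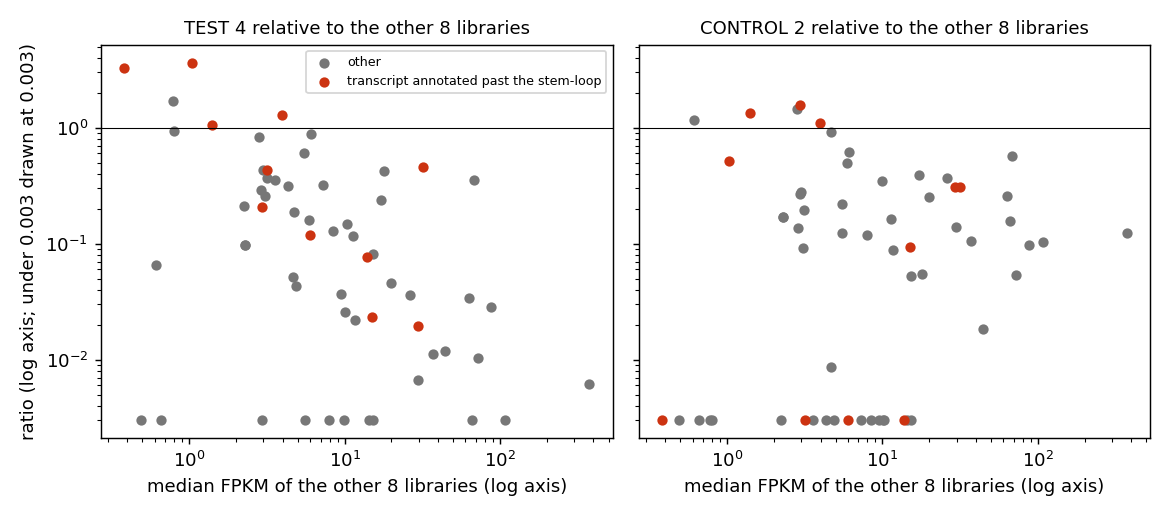
Level of each member in TEST 4 (left) and CONTROL 2 (right) divided by its median in the other 8 libraries, against that median, both on log axes, for the 60 members with a median above 0. Red points have an annotated transcript that runs past the stem-loop to a poly(A) signal, and most points lie below the line at 1 in both panels (median 0.0967 in TEST 4 and 0.112 in CONTROL 2).

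Other values stood apart in TEST 4, and fewer did in CONTROL 2. Ribosomal RNA rows held 1.18% of the FPKM in TEST 4, 13.6% in CONTROL 2 and 10.7% to 26.0% in the others. Rn7sk, a small nuclear RNA without a poly(A) tail, was at 28.3 FPKM in TEST 4, 266.3 FPKM in CONTROL 2 and 237.2 to 780.3 FPKM in the others. In CONTROL 2 both therefore lay within the range of the other 8 libraries. The median FPKM of all genes was 3.34 in TEST 4 and 3.15 in CONTROL 2, the highest values, against 2.15 to 2.82 in the others. In TEST 4 the summed FPKM of 20 replication genes, 461.8, was the highest of all libraries (251.1 to 453.8 in the remaining 9). Slbp was highest there too, at 45.2 FPKM against 15.3 to 38.2 FPKM. Values in TEST 4 were higher in general, with a median ratio to the other 8 libraries of 1.43 over all genes. CONTROL 2 was within the range of the others for both the replication sum and Slbp (295.1 and 18.9 FPKM). B cell markers summed to 24.7 FPKM in CONTROL 2 and 14 FPKM in TEST 4 and to at most 3.03 FPKM elsewhere, and 5 CD4 T cell markers summed to 724.8 to 1765 FPKM over the 10 libraries. Red cell and neutrophil markers summed to 42.5 and 31.1 FPKM in TEST 4. The part of library method, of other cells and of cell cycle state in the low histone values was not tested, and the sources do not say how RNA was selected for either library.

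TEST was compared with CONTROL across all genes with limma on log2(FPKM + 1), which asks whether T cells of the study's test mice differ from control T cells. None of the 57 members that passed the filter of 1 FPKM in at least 4 libraries passed a threshold of 0.05 on the p adjusted by Benjamini-Hochberg, against 0.0745% of the 10743 genes called higher in TEST and 0.0186% called lower. Of the 57 members 49 were on the higher side in TEST, against 50.3% of all genes. The median log2 difference of the members was 0.71, beside 0.003 over all genes. At an unadjusted p under 0.05 stood 2 members, both on the higher side, against 690 genes higher and 784 lower. Without TEST 4 and CONTROL 2 there were 9 of 58 members, all on the higher side, against 526 genes higher and 605 lower of 10770. Again none was called (smallest adjusted p 0.243 by limma). That pair was singled out by its low histone values, so fits without it describe the members and do not test them. Hist1h2an, an H2A gene named after its values were seen, was at 0 FPKM in all 4 controls and in TEST 6 and at 0.47 to 13.5 FPKM in the other TEST libraries, and its log2 difference of 2.17 ± 0.65 (SE) had the smallest adjusted p among the members, 0.204 by limma. It shares its predicted protein with 8 other H2A genes, and how reads were divided among similar genes is not known. The median of the members moved with the libraries and the fit. It was 1.10 without TEST 4, 0.16 without CONTROL 2, 0.61 without both, 0.43 with TEST 1 and TEST 2 averaged, 1.29 with array weights and -0.26 with the proliferation index described below as a covariate.

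Within the Hist1 cluster the sums ran from 68.0 to 2850 FPKM in TEST and from 140.1 to 1322 FPKM in CONTROL. Among abundant members the log2 differences between the groups were 0.41 ± 1.26 (SE) for Hist1h4d, 0.73 ± 1.32 for Hist2h3b and 0.29 ± 0.85 for Hist1h1e, all smaller than their errors. Without TEST 4 and CONTROL 2 they were 1.00 ± 0.35, 1.36 ± 0.65 and 0.70 ± 0.52, larger than their errors, with none called. Leaving out libraries chosen for low histone values can itself shrink these errors. Genes around the histone cycle were not called in this comparison either. Among them were 18 genes of histone RNA transcription, its control and processing (17 tested), 14 histone chaperones, 20 replication genes and 15 mitotic genes. Npat showed a log2 difference of -0.29 ± 0.23 and Slbp one of 0.23 ± 0.30.

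Cells transferred into hosts (6 libraries) were compared with endogenous cells (4 libraries), with group as covariate. No gene was called in this fit, in either direction (0% of 10743), and so none of the 57 members. Members with a higher level in transferred cells numbered 45, where 36.7% of all genes were on that side. The median log2 difference of the members was 0.69, beside -0.13 over all genes. An unadjusted p under 0.05 was found for 4 members (Hist2h3c2, Hist1h2an, Hist1h2ap and Hist1h2ab), against 289 genes on the higher and 843 on the lower side. Hist2h3c2, an H3 gene, was at 55.4, 63.2, 17.3 and 17.3 FPKM in TEST 1, TEST 2, TEST 3 and TEST 5 and at 22.3 and 4.98 FPKM in CONTROL 1 and CONTROL 2, the transferred libraries, and at 0.91, 25.1, 0.28 and 4.20 FPKM in the endogenous libraries TEST 4, TEST 6, CONTROL 3 and CONTROL 4. TEST 6 lay above 4 of the 6 transferred libraries, so the origins overlapped, and its log2 difference was 2.22 ± 0.70 with a limma adjusted p of 0.350. The median of the members was -0.005 without TEST 4, 1.20 without CONTROL 2, 0.48 without both, 0.48 with TEST 1 and TEST 2 averaged, 1.21 in C57BL/6 only and -0.28 with group and the proliferation index described below as covariates. All 15 mitotic genes were on the higher side in transferred cells, with a median of 0.80, and the 2 genes of that index had a median of 1.06. Their part in the members' difference was not tested beyond that fit.

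The members were then set against a proliferation index, the mean of log2(FPKM + 1) of Mki67 and Rrm2, which ran from 2.31 in CONTROL 3 to 5.30 in TEST 1. Here 53 of the 57 members had a positive slope, against 37.8% of all genes. The median slope of the members was 0.85 log2 units per unit of the index, beside -0.06 over all genes. At an unadjusted p under 0.05 stood 41 of the 57, all with a positive slope, against 596 positive and 820 negative slopes among the 10741 genes. After adjustment over all genes 2 members were called, where 0.54% of genes were called with a positive and 0.0466% with a negative slope. They were Hist2h3c2, whose values are given above, with a slope of 1.47 ± 0.29 (SE), and Hist1h1a, a linker histone gene, with a slope of 0.82 ± 0.16, both at an adjusted p of 0.0424. Hist1h1a ranged from 0.56 to 7.15 FPKM with a median of 3.49 in TEST and was at 3.51, 0.39, 0.60 and 0.38 FPKM in CONTROL 1 to CONTROL 4. Its highest values were thus in the libraries with a high index and in TEST 3, and its levels were low throughout.

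**Figure D4:**
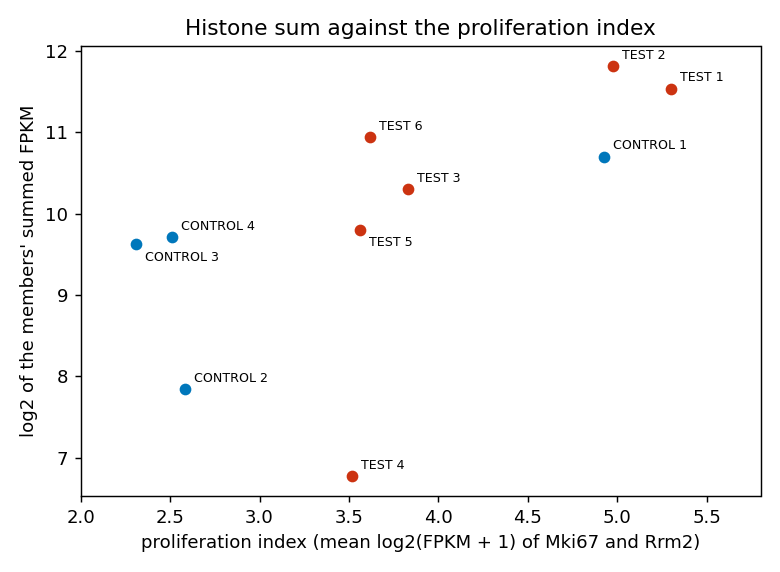
log2 of the summed FPKM of the members against the proliferation index, 1 point for each library (TEST red, CONTROL blue). TEST 4 (index 3.52) and CONTROL 2 (index 2.58) lie below the libraries of similar index.

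The calls depended on TEST 4 and CONTROL 2. Without both libraries 8 members were called, all with a positive slope, where 0.837% of 10390 genes were called in either direction. The 8 were Hist2h3b (slope 1.07 ± 0.14), Hist1h2bl (0.83 ± 0.11), Hist1h1b (1.03 ± 0.16), Hist2h3c2 (1.48 ± 0.23), Hist1h2ak (0.87 ± 0.14), Hist1h2bm (0.84 ± 0.14), Hist1h2be (0.76 ± 0.14) and Hist1h2bk (0.81 ± 0.17), with limma adjusted p values from 0.00975 to 0.0499. Of the 2 members called with all libraries, only Hist2h3c2 was among them. The median slope was then 0.60. Since the pair was singled out by its low histone values, this fit and its adjusted p values describe the members and do not test them. No member was called without the libraries farthest from the median index, TEST 1 and TEST 2, with TEST 1 and TEST 2 averaged over the shared mice, or without all 3 libraries from pools of 4 mice, and the median slopes were 0.54, 0.78 and 0.49. These fits held fewer libraries.

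Other genes of the cell cycle moved along the same index. Of the 15 mitotic genes 11 were called with a positive slope, led by Ube2c (1.01 ± 0.11), Top2a (0.98 ± 0.11) and Ccnb2 (0.96 ± 0.12). Of 20 replication genes 1 was called, Gins2, a subunit of the replicative helicase (0.94 ± 0.15). H2afx, which encodes the variant H2A.X, was called among the 9 tested genes of a list of histone variants outside the clusters (0.70 ± 0.14). None of the 17 genes of histone RNA transcription, its control and processing and none of the 14 chaperones was called. Slbp had a slope of 0.17 ± 0.14 and Npat one of -0.06 ± 0.11.

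By strain, the 3 Balb/c libraries were compared with the 7 C57BL/6 libraries, with group as covariate. Of the 59 members tested 1 was called, where 0.325% of 11092 genes were called higher and 0.307% lower in Balb/c. This was Hist1h4a, at 16.4 FPKM in TEST 5, 41.5 FPKM in TEST 6 and 34.9 FPKM in CONTROL 4, the Balb/c libraries. In C57BL/6 it was at 0, 8.92, 0.98 and 0.71 FPKM in TEST 1 to TEST 4 and at 3.02, 0 and 1.22 FPKM in CONTROL 1 to CONTROL 3. All Balb/c values were above all C57BL/6 values, with a log2 difference of 3.72 ± 0.62 (SE, adjusted p = 0.0109 by limma). Of the 11092 genes, 154 were separated in this direction and 196 in the other. The call was lost without TEST 6, without CONTROL 4, with a pseudocount of 0.1 and without the filter. Hist1h2ah, an H2A gene named after its values were seen, was above 0 only in TEST 6 (20.9 FPKM) and CONTROL 4 (13.7 FPKM), the endogenous Balb/c cells.

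For the H4 genes together the strains overlapped. The sum of the H4 genes, which share a predicted protein, was 332.3 FPKM in TEST 5, 844.9 FPKM in TEST 6 and 389.2 FPKM in CONTROL 4. It was 20.5 to 1013 FPKM in C57BL/6. Hist1h4d made up most of it in Balb/c, at 293.4, 698.7 and 269.0 FPKM in TEST 5, TEST 6 and CONTROL 4. The sum therefore could not show a difference of the size seen for Hist1h4a. Hist1h4d showed a log2 difference of 1.20 ± 1.34 between the strains, and of -0.33 ± 0.34 without TEST 4 and CONTROL 2. Over the members tested the median difference was -0.27, beside -0.01 over all genes. On the lower side in Balb/c were 36 of the 59, where 48.5% of all genes were on the higher side. Without TEST 4 and CONTROL 2, both C57BL/6, the median was -0.85, and 2 members were called where 1.05% of genes were. They were Hist1h4a again and Hist1h2bf, an H2B gene with a log2 difference of -1.65 ± 0.31. The pair was chosen by its low histone values, so the call of Hist1h2bf is a description and no test. With group and the proliferation index as covariates the median was 0.41. None of the 15 mitotic genes was on the higher side in Balb/c (median -0.66), the 2 index genes had a median of -0.80, and their part in the members' difference was not tested beyond that fit. Reads of Balb/c cells were aligned to a C57BL/6 genome, and the part of strain-specific sequence in the division of reads among H4 genes was not tested.

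**Figure D5:**
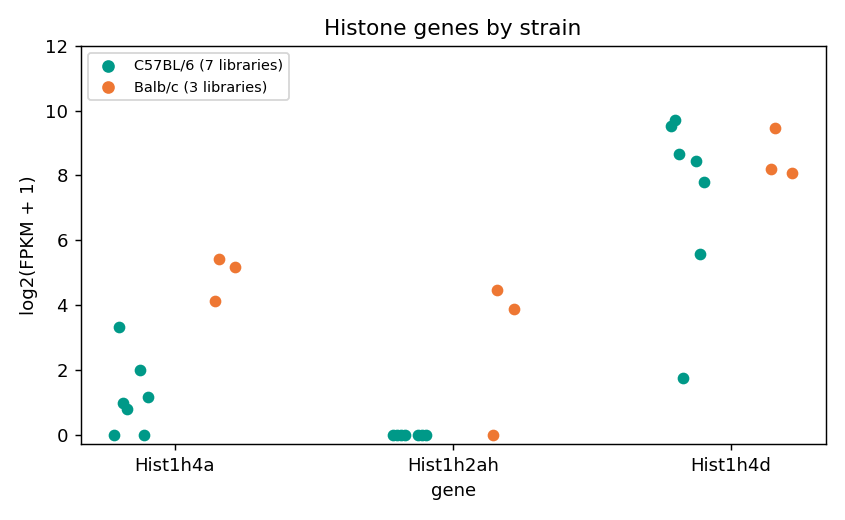
log2(FPKM + 1) of Hist1h4a, Hist1h2ah and Hist1h4d, 1 point for each library by strain. Hist1h4a was at 16.4 to 41.5 FPKM in the 3 Balb/c libraries and at most at 8.92 FPKM in C57BL/6, whereas the strains overlapped for Hist1h4d.

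An interaction of group and strain was fitted to see whether the TEST difference of a member differed between strains. No gene and no member was called, the smallest adjusted p of a member was 0.9998 by limma, and 2 members had an unadjusted p under 0.05. With 1 Balb/c control library the fit has little precision.

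The draining (TEST 1) and non-draining (TEST 2) nodes of the same mice were set side by side without a test, since each is 1 library. The histone sum was 1.21 times as high in TEST 2, and 43 members were higher and 20 lower there. The ratio was 1.49 for H2A, 1.21 for H1, 1.16 for H2B and for H4 and 1.12 for H3. Mki67 and Rrm2 went the other way, at 0.894 and 0.696 times. Hist1h2ak, an H2A gene, was at 144.1 FPKM in TEST 1 and 283.8 FPKM in TEST 2, and Hist1h4a at 0 and 8.92 FPKM.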

How the data were processed

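Libraries of CD4+ T cell RNA were prepared by a sequencing service and read on an Illumina HiSeq instrument. The authors aligned reads to mm10 with Bowtie and deposited FPKM values for 17457 genes, and BWA and RSEM appear in the submitters' processing notes with no version. RNA selection, strand and depth are not given in the sources used here. Ribosomal RNA rows are part of the FPKM total, so a library with little of it has higher values for its other genes. FPKM of transcripts as short as those of histones also depends on how length was corrected.

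From these values log2(FPKM + 1) was fitted with limma 3.58.1 (R 4.3.3, empirical Bayes with trend, two-sided) for genes that reached 1 FPKM in no fewer than 4 libraries, or 3 for the 3 Balb/c libraries. P-values were adjusted over all genes (Benjamini-Hochberg) and calls made at 0.05. The study's own methods need counts, so a test on log values was used. A log2 difference on this scale understates changes of low genes. TEST 1 and TEST 2 share mice, and elsewhere a library is a separate mouse or pool. Stem-loops and predicted proteins were read from GENCODE vM21 transcripts, matched by gene symbol. Promoters were read from RefSeq (GRCm38.p6), matched by gene ID.

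Named members were the 15 highest by mean, the highest of each histone type in each cluster, those called (up to 10 a comparison), 5 with polyadenylated human counterparts and testis members. Members and lists were chosen with earlier results of these data known. The alternatives covered the pseudocount, filter, scaling, library weights, covariates, index and libraries left out, and combinations with TEST 4 and CONTROL 2 left out were added after seeing the data. The fit was tested on simulated data.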

Additional observations from a re-analysis of the deposited data

Results flagged for a closer look

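In 75 groups of 4 or 6 libraries, over 38 quantities, 6 had a library standing apart from the rest of its group. For independent, normally distributed values the rule flags about 1 in 20 groups. FPKM values are skewed and many of these quantities vary together, so that rate need not hold here. In CONTROL 1, a pool of 4 mice, Mki67 was at 50.3 FPKM, against at most 7.93 FPKM in the other controls, and Rrm2 at 17.0 FPKM, against at most 3.02 FPKM. In the same library the linker histone gene Hist1h1b was at 59.6 FPKM, against 3.91 to 13.1 FPKM in the other controls, and Hist1h1a at 3.51 FPKM, against at most 0.60 FPKM. Hist1h4a was at 34.9 FPKM in CONTROL 4, the Balb/c control, and at most at 3.02 FPKM in the other controls. The testis gene Hist1h1t was at 0.20 FPKM in TEST 3 and listed at 0 in the other TEST libraries.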

How the results depend on the processing

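For TEST against CONTROL, 27 of 28 alternatives also called 0 members, and array weights called 4 (Hist1h2an, Hist1h2ap, Hist1h3i and Hist2h3c2) where 3.11% of all genes were called. Leaving out the spleen library and leaving out CONTROL 3 are the same fit, counted as both. For transferred against endogenous cells all 27 alternatives called 0. For the slope on the proliferation index the count of 2 was 0 with a pseudocount of 0.1, no filter, a filter of 5 FPKM, TEST 1 and TEST 2 averaged, the group or origin covariate, without the 2 libraries farthest from the median index, in C57BL/6 only, without the pools of 4 mice, and with the index from Rrm2 or from 15 mitotic genes. It was 1 with the strain covariate, 4 with a pseudocount of 5, 6 in TPM without ribosomal RNA rows, 8 with quantile normalization or without TEST 4 and CONTROL 2, 10 with median-ratio scaling and 37 with array weights, where 11.0% of all genes were called. Leaving out 1 library gave 0 to 16 (16 without TEST 4). Without TEST 4 and CONTROL 2 it was also 3 with the group covariate (Hist1h2bl, Hist2h3b and Hist2h3c2), 7 with the mitotic index, 10 in TPM without ribosomal RNA rows and 1 with TEST 1 and TEST 2 averaged, all chosen after seeing the data. The strain count of 1 was 0 with a pseudocount of 0.1 or no filter, 2 without TEST 4 and CONTROL 2 (also in TPM without ribosomal RNA rows), and 0 to 2 leaving out 1 library. The cause of these changes was not tested. The medians of the members kept their sign in all 34 alternatives for the index slope (0.49 to 1.03), in 27 of 28 for TEST (-0.26 with the index covariate), in 25 of 27 for transfer (-0.28 with group and index covariates) and in 21 of 25 for strain (up to 0.41 with group and index covariates). The log2 ratio of mean summed FPKM, TEST over CONTROL, was 1.03, and 0.56 to 1.03 under 4 other measures of level. No paired analysis was possible because the labels give no replicate numbers that groups share. Low values of short transcripts can rest on few reads, which limits what can be said of members near 0.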
